A study of Mus musculus with 7 samples.

Results

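The genes described are 9 aldehyde dehydrogenases (Aldh2, Aldh1a1, Aldh1a7, Aldh1b1, Aldh4a1, Aldh5a1, Aldh6a1, Aldh7a1 and Aldh8a1) and the alcohol dehydrogenase Adh1, in newborn mouse liver. They were taken by name: every array feature whose platform annotation gives one of these genes as its only symbol was included. That rule found all 10 genes among 18193 named ones, on 17 probe sets, where a probe set is the group of short probes that reports 1 transcript. Messenger RNA was profiled on day of life 1 in livers of male C57BL/6J mice, with each liver on its own Affymetrix Mouse Genome 430 2.0 array. The livers came from 3 wild type pups and 4 glycerol kinase knockout pups, and the wild type pups were age-matched littermates of knockouts. The labels do not say which litter a pup came from, and each liver was extracted on its own. Knockout pups of this age show no outward signs of the deficiency, so the comparison asks which transcripts differ ahead of them. The transcript of the targeted gene was not analysed here, so it gives no check of the group labels.

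Aldehyde dehydrogenases oxidise reactive aldehydes to acids with NAD or NADP. In liver, several of them are known as single steps of amino acid breakdown in mitochondria. Others clear acetaldehyde that alcohol dehydrogenase makes from ethanol, or turn retinal into retinoic acid. Adh1 is the main alcohol dehydrogenase of liver and also oxidises retinol.

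Aldh4a1 was the 1 gene of the 10 that passed the test by its brightest probe set, with a 1.85-fold higher level in knockout. Aldh8a1 passed by 1 of its 2 probe sets, at 1.75-fold higher. Aldh1a7 had the largest fold change, 3.03, from dim wild type values, but did not pass with all 7 arrays. The acetaldehyde enzyme Aldh2 and Adh1 had overlapping groups. Values are intensities on a linear scale, in arbitrary units that cannot be compared between probe sets. Each was transformed to log2(intensity + 16) and tested with limma over 22518 probe sets, and called where the p-value adjusted by Benjamini and Hochberg lay under 0.05. Fold changes on that scale understate the change of dim probe sets.

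With a gene counted by its brightest probe set, 1 of 10 was called higher by limma and 0 were called lower, against 3.09% and 1.67% of the 11159 tested genes. Of all tested probe sets, 4.24% were called in either direction. By the unadjusted p, 7 of the 15 tested probe sets of these genes lay under 0.05, and so did 21.7% of all tested probe sets. The mean log2 level was higher in knockout for 9 of the 10 genes, all but Aldh6a1, against 49.9% of all tested genes. Aldh2 was among the 9 at only 0.01, and it was at -0.17 by the mean of its probe sets. The median log2 fold change of the 10 genes was 0.51, and that of all tested genes was -0.0013. Every knockout array lay above every wild type array for 5 of the 10 genes, Aldh1a7, Aldh1b1, Aldh4a1, Aldh5a1 and Aldh8a1, against 11.7% of all tested genes. The reverse, every knockout array below every wild type array, was seen for 0 of the 10 and for 10.4% of tested genes. Under quantile normalization 8 of 10 were higher, since Aldh2 changed sign, and 9 of 10 under median scaling. Over all probe sets, 55.4% of calls were higher with the values as deposited and 73.6% with arrays scaled to equal medians.

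**Figure D1:**
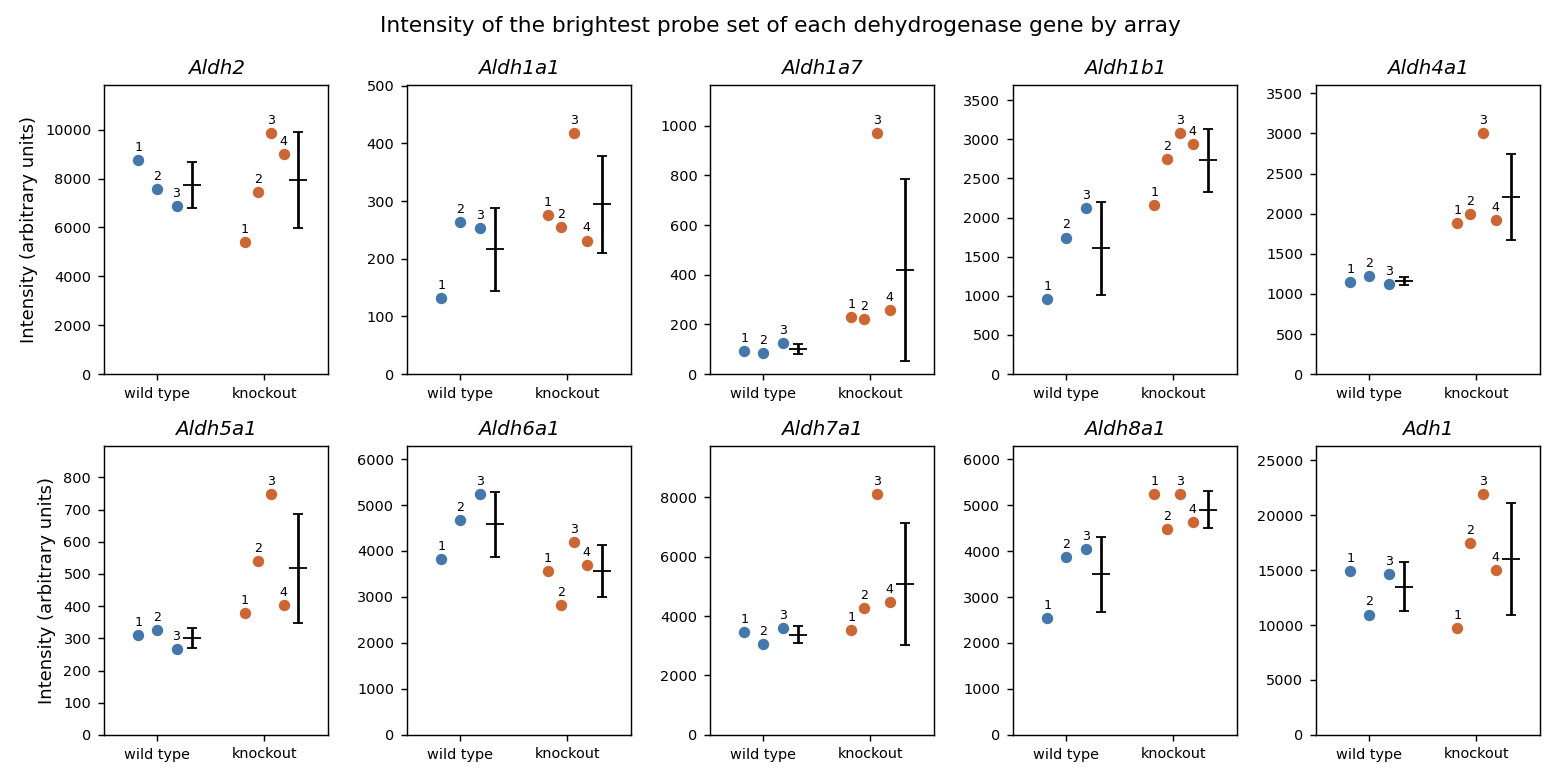
Intensity (arbitrary units, linear axis from 0) of the brightest probe set of each of the 10 genes in the 3 wild type and 4 knockout arrays; points are single livers with their replicate number, and bars show the mean ± SD. Knockout 3 is the highest array for 8 of the 10 genes, and the groups of Aldh1a7, Aldh1b1, Aldh4a1, Aldh5a1 and Aldh8a1 do not overlap.

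One knockout liver stood apart for these genes. Knockout 3 was the highest of the 7 arrays for 8 of the 10 genes, all but Aldh6a1 and Aldh8a1, whereas it was the highest for 18.5% of all tested genes. The median difference between knockout 3 and the mean of the other 3 knockouts was 0.66 on the log2 scale over the 10 genes, and -0.05 over all tested genes. It was 1.98 for Aldh1a7, 1.00 for Aldh7a1, 0.76 for Aldh5a1 and 0.13 for Aldh8a1. Knockout 3 also had the highest ratio of 3' to 5' signal for 4 of 5 control transcripts, for example 1.45 for actin against 1.12 to 1.35 in the other arrays. Its summed level of 14 measured hepatocyte markers was the highest too, at 480700, against 374729 to 439393 in the other arrays. Its summed markers of liver endothelium were the lowest of the 7 arrays, at 12189 against 14483 to 21320 in the others. Its macrophage sum, at 29127, was only just the lowest, against 29477 to 38223 in the others. Whether RNA quality or the makeup of the tissue plays a part in the values of knockout 3 was not tested. Without knockout 3, 2 of the 10 genes were called higher, Aldh4a1 and Aldh1a7, and 2.99% of all tested genes were. Their median log2 fold change was then 0.37 with 8 of 10 higher, and that of all tested genes was 0.01.

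**Figure D2:**
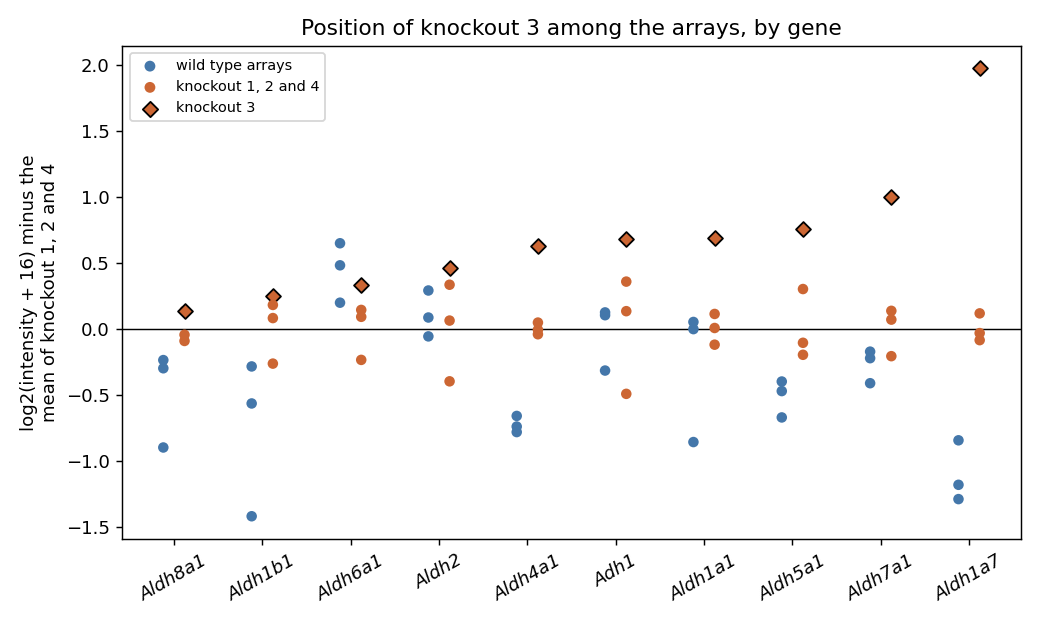
Each array's log2(intensity + 16) minus the mean of knockout 1, 2 and 4, for the brightest probe set of each gene, ordered by the position of knockout 3 (outlined diamonds). Knockout 3 lies 1.98 above the other knockouts for Aldh1a7 and 0.13 above them for Aldh8a1.

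The first group acts in amino acid breakdown. Aldh4a1 is the mitochondrial enzyme that makes glutamate from the proline intermediate pyrroline-5-carboxylate. Its intensities were 1152, 1219 and 1119 in wild type 1 to 3, and 1881, 2001, 3004 and 1926 in knockout 1 to 4. The wild type livers lay close together, every knockout was above them, and knockout 3 was the farthest. The mean rose from 1163 ± 51.1 to 2203 ± 536 (SD, n = 3 and 4), a log2 fold change of 0.89 ± 0.18 (SE, limma adjusted p = 0.0272). Without knockout 3 the log2 fold change was 0.73 and the adjusted p = 0.0174. Aldh4a1 also passed without knockout 1 and missed the threshold without any of the other 5 arrays, the highest adjusted p being 0.126 without wild type 3. Its log2 fold change stayed between 0.73 and 0.95 in those runs, in which fewer arrays also give less power.

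The promoter of Aldh4a1 is shown because this is the gene called by its brightest probe set. The window is the 250 bases before the start in RefSeq (GRCm38.p6, chr4:139622644-139622893, plus strand), with matches to the CCAAT box on either strand in capitals.
Aldh4a1: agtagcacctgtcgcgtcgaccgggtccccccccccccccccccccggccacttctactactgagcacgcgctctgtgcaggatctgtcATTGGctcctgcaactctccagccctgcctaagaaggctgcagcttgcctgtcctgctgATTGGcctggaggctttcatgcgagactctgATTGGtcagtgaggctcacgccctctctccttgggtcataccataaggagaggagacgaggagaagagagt
All 3 matches lie on the opposite strand, 161, 102 and 71 bases before the start. The letters CCAAT, read on either strand, occur in 33.8% of the 32851 windows of this length, so their presence alone is common. Of the 8 dehydrogenase genes searched, 5 hold at least 1 match, as do 6 of their 10 listed starts. Aldh2 and Aldh7a1 were not among the genes searched.

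Aldh5a1 encodes succinate semialdehyde dehydrogenase, the mitochondrial enzyme that ends the breakdown of the neurotransmitter GABA. Its intensities were 310.2, 327.0 and 268.0 in wild type and 378.7, 541.6, 748.9 and 404.4 in knockout. The groups did not overlap, although the lowest knockout lay close to the highest wild type. The mean was 301.7 ± 30.4 in wild type and 518 ± 170 in knockout, a log2 fold change of 0.70 ± 0.23 that did not pass (limma adjusted p = 0.118). Without knockout 3 it was 0.51 (adjusted p = 0.153).

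Aldh6a1, methylmalonate semialdehyde dehydrogenase of valine and pyrimidine breakdown, was the 1 gene with a lower mean in knockout. Its intensities were 3832, 4667 and 5242 in wild type and 3557, 2833, 4204 and 3689 in knockout. Knockout 3, the highest array for most of the other genes, lay above wild type 1 here, so the groups overlapped. The log2 fold change was -0.36 ± 0.16 and did not pass (limma adjusted p = 0.228).

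Aldh7a1, also called antiquitin, acts in lysine breakdown. Its bright probe set read 3480, 3049 and 3603 in wild type and 3517, 4265, 8119 and 4468 in knockout. Knockout 1 lay inside the wild type range and knockout 3 far above all others. The log2 fold change of 0.52 ± 0.24 did not pass (limma adjusted p = 0.248) and was 0.27 without knockout 3. Its 2 other probe sets fell below the expression limit and were not tested. They read at most 80.5 in wild type, and in both knockout 3 was again the highest array, at 124.1 and 45.2.

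Aldh8a1 is known as an enzyme of tryptophan breakdown, where it oxidises 2-aminomuconic semialdehyde, and was earlier described as a retinal dehydrogenase. Its called probe set read 1822, 2559 and 2979 in wild type and 5378, 3839, 3784 and 4096 in knockout. All knockouts lay above all wild type livers, and here knockout 1 was the highest. The mean rose from 2453 ± 586 to 4274 ± 748, a log2 fold change of 0.81 ± 0.19 (limma adjusted p = 0.0441). The other probe set is the brighter one and read 2551, 3876 and 4047 in wild type and 5244, 4476, 5234 and 4625 in knockout. There too the groups did not overlap, but the log2 fold change of 0.51 ± 0.17 did not pass (adjusted p = 0.114), nor did the mean of both at 0.66 ± 0.17 (adjusted p = 0.0611). The call of the first probe set was marginal: it held without knockout 3 (adjusted p = 0.0469) and was lost without any other array, the highest adjusted p being 0.121 without wild type 1. It was also lost with eBayes without a trend (adjusted p = 0.0729) and without a filter on low values (adjusted p = 0.0753).

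**Figure D3:**
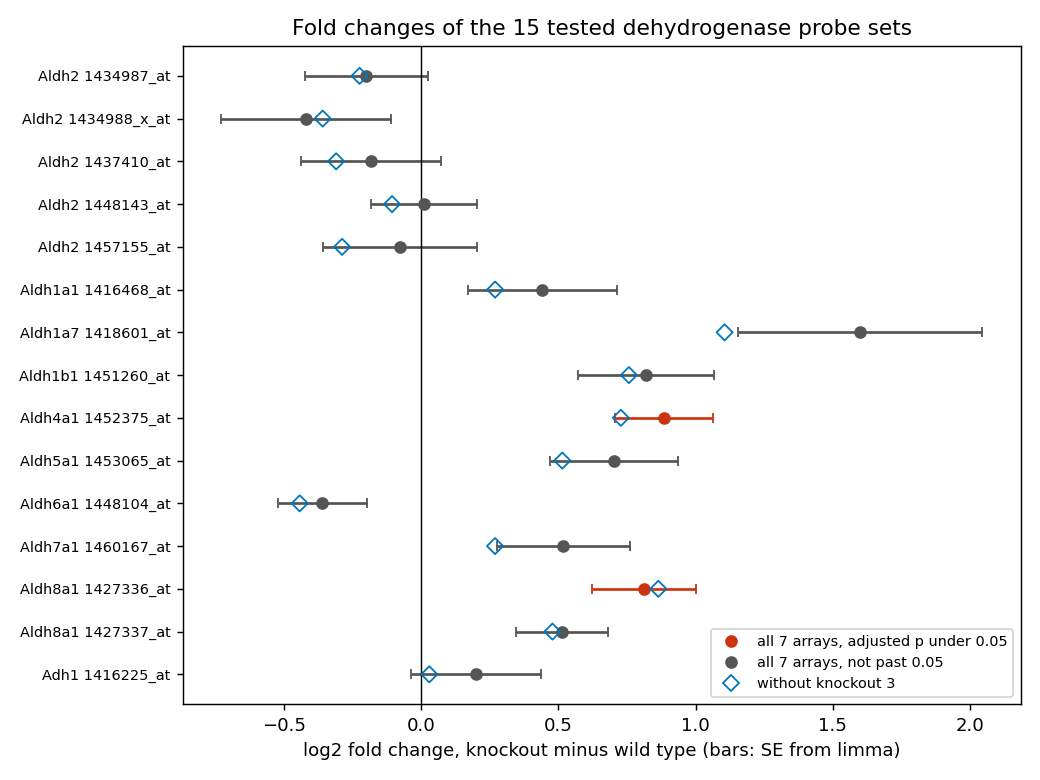
Log2 fold change (knockout minus wild type, log2(intensity + 16) scale) of the 15 tested probe sets, with SE from limma; open diamonds give the value without knockout 3. Aldh4a1 at 0.89 and 1 probe set of Aldh8a1 at 0.81 pass an adjusted p of 0.05, and the value of Aldh1a7 moves from 1.60 to 1.11 without knockout 3.

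The second group is known for acetaldehyde and other small aldehydes in mitochondria. Aldh2, the main acetaldehyde dehydrogenase of liver, read 8743, 7584 and 6866 in wild type and 5418, 7462, 9862 and 9012 in knockout by its bright probe set. The knockouts spanned the whole wild type range and beyond on both sides. The log2 fold change was 0.01 ± 0.19 (limma adjusted p = 0.985), with a 95% confidence interval from 0.749-fold to 1.35-fold. That interval leaves room for changes of either direction within those bounds. Its other 4 probe sets were dim, with log2 fold changes from -0.42 to -0.08, and none passed.

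Aldh1b1, a close mitochondrial relative of Aldh2 that also oxidises acetaldehyde, read 958, 1745 and 2123 in wild type and 2155, 2742, 3078 and 2939 in knockout. The groups did not overlap, but knockout 1 and wild type 3 were nearly level and wild type 1 lay far below the rest. The mean was 1609 ± 595 in wild type and 2729 ± 406 in knockout. The log2 fold change of 0.82 ± 0.25 did not pass (limma adjusted p = 0.0933) and was 0.49 without wild type 1.

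The third group is cytosolic. Aldh1a1 is the retinal dehydrogenase that makes retinoic acid in liver, and Aldh1a7 is its rodent neighbour and near copy, with 0 protein-coding genes starting between them in the RefSeq table. Aldh1a7 read 94.5, 86.5 and 123.6 in wild type and 229.2, 220.3, 969.7 and 256.0 in knockout. Knockout 1, 2 and 4 lay close together above all wild type livers, and knockout 3 stood far above them. The mean was 101.5 ± 19.5 in wild type and 419 ± 368 in knockout. The wild type values lay near the expression limit, an intensity of about 98, so the size of the fold change is uncertain. With all arrays it had a log2 fold change of 1.60 ± 0.45 and did not pass (limma adjusted p = 0.0741). Without knockout 3 it was smaller, at 1.11 ± 0.20, and passed (adjusted p = 0.0202).

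Aldh1a1 read 132.5, 263.1 and 252.8 in wild type and 275.1, 254.4, 417.9 and 231.7 in knockout. Apart from wild type 1 below and knockout 3 above, the arrays lay together and the groups overlapped. Its log2 fold change was 0.44 ± 0.27 (limma adjusted p = 0.379), with a 95% confidence interval from 0.892-fold to 2.07-fold. Whether the changes of Aldh1a7 and Aldh1a1 differ was not tested. As the transcripts are near copies and probe sequences were not used here, some signal may be shared between both probe sets.

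The promoters of these neighbours are shown because they resemble each other, and that of Aldh8a1 because it shares a motif with them. Capitals mark the octamer ATGCAAAT, the binding motif of POU factors, searched on both strands in the 250 bases before each start. The windows are from RefSeq (GRCm38.p6): chr19:20601718-20601967 on the plus strand for the second listed start of Aldh1a1, chr19:20727557-20727806 on the minus strand for Aldh1a7, and chr10:21377050-21377299 on the plus strand for Aldh8a1.
Aldh1a1: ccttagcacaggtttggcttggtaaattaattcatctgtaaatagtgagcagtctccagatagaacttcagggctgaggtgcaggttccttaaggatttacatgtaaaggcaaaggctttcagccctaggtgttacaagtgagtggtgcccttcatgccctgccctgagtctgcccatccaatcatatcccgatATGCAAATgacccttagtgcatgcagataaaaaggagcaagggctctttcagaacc
Aldh1a7: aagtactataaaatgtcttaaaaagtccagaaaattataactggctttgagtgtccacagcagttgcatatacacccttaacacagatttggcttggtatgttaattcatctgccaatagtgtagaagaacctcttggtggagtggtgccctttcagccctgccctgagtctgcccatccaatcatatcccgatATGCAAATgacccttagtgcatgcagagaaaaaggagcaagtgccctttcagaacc
Aldh8a1: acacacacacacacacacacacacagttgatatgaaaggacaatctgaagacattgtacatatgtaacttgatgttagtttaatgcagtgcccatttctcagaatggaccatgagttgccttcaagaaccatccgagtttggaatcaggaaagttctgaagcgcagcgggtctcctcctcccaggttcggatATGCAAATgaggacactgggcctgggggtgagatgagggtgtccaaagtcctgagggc
The octamer begins 56 bases before the start in both neighbours and 58 bases before it in Aldh8a1. It occurs in 1.6% of the 32851 windows, and in 3 of the 10 starts searched in 8 dehydrogenase genes. In Aldh1a1 and Aldh1a7 the octamer lies inside a run of 65 identical bases, from 94 to 30 bases before the start. That run also holds a CCAAT match at 72 bases. As these genes are near copies, their matches are not independent, and an excess of the octamer was not tested. Over the whole windows their aligned identity was 65.7%. The other listed start of Aldh1a1 holds neither motif and shares no run longer than 8 bases with Aldh1a7. A match describes letters, not binding.

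Adh1 read 14881, 10959 and 14664 in wild type and 9695, 17498, 21946 and 14979 in knockout. The lowest and the highest of the 7 livers were both knockouts, so all wild type livers lay within the knockout range. Its log2 fold change was 0.20 ± 0.24 (limma adjusted p = 0.673), with a 95% confidence interval from 0.798-fold to 1.66-fold, and it was 0.03 without knockout 3.

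Relatives outside these 10 genes held 1 larger change. Aldh3a2, the fatty aldehyde dehydrogenase, read 523.8, 692.0 and 584.7 in wild type and 2026, 2449, 2002 and 2775 in knockout. Its knockouts lay far above all wild type livers, and knockout 3 was the lowest of them. A log2 fold change of 1.91 ± 0.17 was found (limma adjusted p = 0.0014), and it passed whichever array was left out. Of the 7 tested genes among other aldehyde dehydrogenases, Aldh3a2 was the 1 that passed, and their median was 0.03. Aldh9a1, which oxidises aminobutyraldehyde, was at 0.55 (adjusted p = 0.0684). Among other alcohol dehydrogenases 0 of 3 tested genes passed with limma and 0 had an unadjusted p under 0.05, including Adh7, a neighbour of Adh1, at 0.33, and Adh5, the formaldehyde detoxifying form, at -0.05.

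Relatives of these dehydrogenases, including those above, other enzymes of aldehydes and retinoids, and enzymes next to them in their pathways were examined by list. Of 104 measured genes in 8 lists, 83 were bright enough to test, and 9 rose and 2 fell. Over all 11159 tested genes, 3.09% were called higher and 1.67% lower, the shares to set beside each list below. The lists were chosen with earlier results of these data known, so counts beside these shares describe the lists and do not test them. Among tryptophan partners of Aldh8a1, 3 of 8 tested genes rose and 0 fell, with a median log2 fold change of 0.51. Kynu, which cleaves kynurenine, was at 1.74 ± 0.38 (limma adjusted p = 0.0360), Qprt, which makes NAD precursors from quinolinate, at 0.85 ± 0.15 and the kynurenine transaminase Kyat3 at 0.66 ± 0.11. Qprt failed only without wild type 3 (adjusted p = 0.0614), Kyat3 failed without any wild type array, and Kynu passed only without knockout 1. Tdo2, the first step of the pathway, was at 0.33 (adjusted p = 0.863).

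Among lysine and choline partners of Aldh7a1, 1 of 11 tested genes rose. It was Aadat, the aminoadipate transaminase that also acts on kynurenine, at 1.72 ± 0.22 (limma adjusted p = 0.0041), and it passed whichever array was left out. Aass, which starts lysine breakdown, was at -0.31 (adjusted p = 0.471). Among branched chain and valine partners of Aldh6a1, 2 of 20 rose and 0 fell, Bckdhb of the branched chain dehydrogenase complex at 0.83 ± 0.16 and Hibch of valine breakdown at 0.93 ± 0.19. Another probe set of Hibch was at 0.19 and did not pass. Bckdhb missed the threshold without knockout 4 and without wild type 2 or 3 (up to an adjusted p of 0.121), and Hibch passed only without knockout 1 or 3. In that list 17 of 20 genes had a higher mean in knockout, against 49.9% of all tested genes. Aldh6a1 had a lower mean but was not called, and this difference in direction was not tested.

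Among proline and GABA partners of Aldh4a1 and Aldh5a1, 0 of 5 tested genes passed. By limma's unadjusted p, 4 of the 5 lay under 0.05, against the 21.7% of all tested probe sets, and they went both ways: 3 were higher, and Oat, named after its values were seen, was lower at -0.95 (adjusted p = 0.146). Prodh, which feeds Aldh4a1, was dim and at -0.53 (adjusted p = 0.282), and Abat, which feeds Aldh5a1, at 0.76 (adjusted p = 0.0859). The brighter Prodh2 of the same list, also named after its values were seen, was higher at 0.46 (adjusted p = 0.0748). In the retinoid list 1 of 16 rose, Rdh9 at 1.79 ± 0.41, and 1 fell, Rdh11, at -0.99 ± 0.21. Rdh9 read 1314 to 1592 in knockout 1, 2 and 4 and 4945 in knockout 3, and its log2 fold change was 1.34 without that array. It passed only without knockout 1 or 3, and Rdh11 missed it without knockout 2 or 4 and without wild type 1 or 3 (up to 0.145). The other probe set of Rdh11 was at -1.23 and did not pass (adjusted p = 0.0654). Among other ethanol and aldehyde enzymes 1 of 13 rose, the carbonyl reductase Cbr1 at 1.82 ± 0.35, and 1 fell, the acetate activating enzyme Acss2 at -1.10 ± 0.21. Cbr1 missed it without knockout 4 and without wild type 1 or 3 (up to an adjusted p of 0.0861), and Acss2 without knockout 2 or 4 and without wild type 2 or 3 (up to 0.120). The other probe set of Acss2 was at -1.30 and did not pass (adjusted p = 0.0628). Cyp2e1, the ethanol oxidising cytochrome, was at -0.04 (adjusted p = 0.884) and catalase, Cat, at 0.15 (adjusted p = 0.677).

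**Figure D4:**
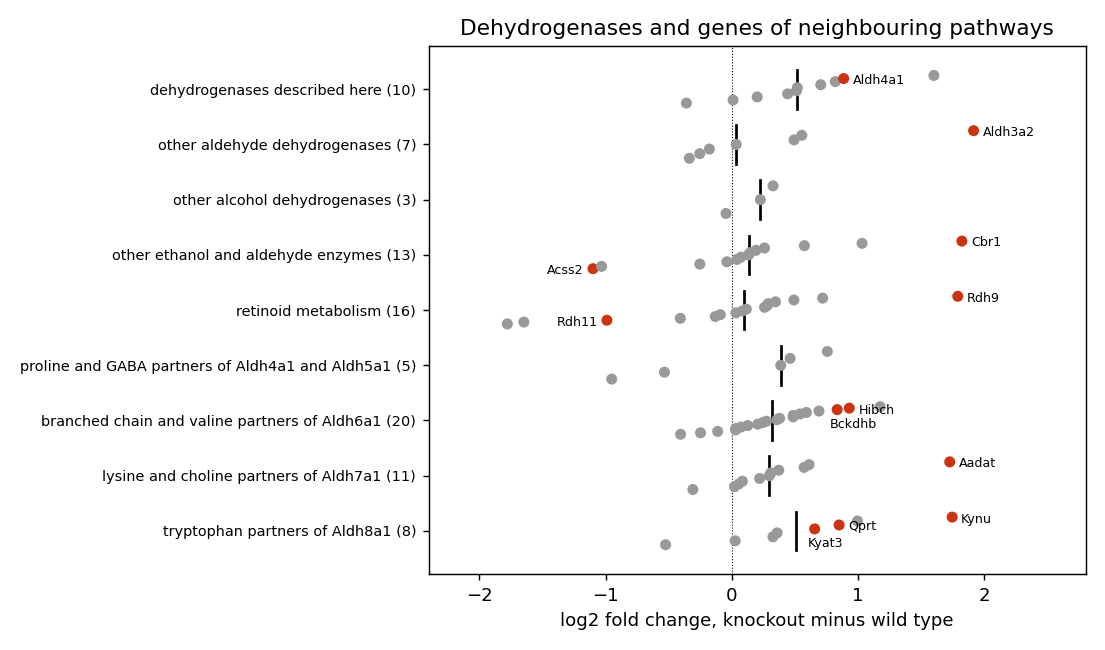
Log2 fold change of each tested gene, by its brightest probe set, in the 10 dehydrogenases and in 8 lists of related and neighbouring genes (number tested in brackets). Red points passed limma's adjusted p of 0.05 and black bars are medians. The median is 0.51 for the dehydrogenases and for the tryptophan list, and 0.03 for the other aldehyde dehydrogenases.

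The genes whose pattern over the 7 arrays was most like that of Aldh4a1, by Pearson r on the log2 scale, were Uroc1 (r = 0.993), Pdxk (0.992), Scp2 (0.990), Abcb4 (0.990) and Mrpl42 (0.989). These values describe 7 arrays that share the group difference, and in all 5 genes knockout 3 was the highest array, as it was for Aldh4a1. Uroc1 is an enzyme of histidine breakdown, and Scp2 is a peroxisomal sterol carrier and thiolase. Uroc1 read 2126, 2329 and 2195 in wild type and 3151, 3402, 5030 and 3148 in knockout. Its log2 fold change of 0.70 did not pass (limma adjusted p = 0.0513).

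Markers were read to see what else moved between the livers. Hepatocyte markers were bright on every array, for example albumin, Alb, at 26465 to 39072. With limma 0 of 14 passed and 1 had an unadjusted p under 0.05, and the summed level of the list overlapped between groups, at 391685 to 435731 in wild type and 374729 to 480700 in knockout (exact permutation p = 0.6). All 11 tested erythroid markers had a lower mean in knockout. Of these, 3 fell, Slc4a1, Rhag and Trim10, against 1.67% of all tested genes called lower. Their summed level was 89159 to 103737 in wild type and 73814 to 82540 in knockout (exact permutation p = 0.0286, the smallest possible here). In bulk liver, fewer cells of a type and less RNA per cell cannot be told apart, and the part of the erythroid difference in the dehydrogenase values was not tested. Markers of neutrophils, macrophages, endothelium, stellate cells, bile duct cells and lymphoid cells gave 51 tested genes. By limma 0 of these passed and 7 had an unadjusted p under 0.05, against 21.7% of all tested probe sets. Among the 7, 4 were endothelial, of 10 endothelial genes tested: Stab1, Stab2 and Lyve1 were lower in knockout and Tek was higher. The median log2 fold change of the endothelial list was -0.23, and its summed level overlapped between groups (exact permutation p = 0.171). No marker measured was at 0 on any array.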

How the data were processed

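The authors deposited 1 intensity per probe set and array. Their software was GCOS, per the submitters' processing notes, and how probes were summarised is not given. The deposited intensities of every array had a mean of 500.0 after the lowest and highest 2% of its 45101 probe sets were left out, so arrays had been scaled to 1 target, which hides changes of total messenger RNA. Array medians differed by 0.193 on the log2(intensity + 16) scale, under the limit of 0.2 for using values unscaled. Without 64 control probe sets, the 22518 probe sets whose mean exceeded the overall median (about an intensity of 98) were tested with limma 3.58.1 in R 4.3.3 (lmFit, eBayes with a trend, no covariates). Arrays correlated at r between 0.930 and 0.985. The number of arrays, 3 and 4, limits the precision. A gene was counted by its brightest probe set. Symbols come from the platform annotation, and all 17 probe sets matched RefSeq by gene ID. Marker sums were compared by exact permutation. Named are all 10 genes, the called genes of 8 pathway lists (up to 4 of smallest p), up to 2 further genes next to a dehydrogenase in its pathway, and the 5 genes most like that of smallest p. Genes and lists were chosen with earlier results of these data known. On simulated data for this comparison, over 22518 probe sets, the steps recovered 8% of 1.5-fold, 44% of 2-fold, 84% of 4-fold and 94% of 8-fold changes. Noise was drawn independently for each probe set and array, with 50 probe sets changed at each fold. Shifts of many genes on 1 array were not simulated, so recovery in the real data may differ. Alternatives covered offset, scaling, filter, variance model, each array left out, replicate block, threshold, mean of probe sets and shared probe sets. Plots were drawn with matplotlib 3.10.9.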

Additional observations from a re-analysis of the deposited data

Results flagged for a closer look

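Among the 4 knockout arrays, 4 of 28 probe sets examined (17 of the dehydrogenases and 11 of called pathway genes) had 1 array far from the others by Dixon's test on the log2 scale, which by chance marks about 1 in 20 groups. In all 4 it was knockout 3, as the highest array. Aldh1a7 read 969.7 there against 220.3 to 256.0 in the other knockouts, and Aldh4a1 read 3004.1 against 1881.3 to 2001.2. Rdh9 read 4945.1 against 1313.7 to 1591.7. Acss2 read 527.2 against 351.2 to 375.8, a gene that was lower in knockout, so knockout 3 was the knockout nearest to wild type for it.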

How the results depend on the processing

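The number of dehydrogenase genes called higher was 1, Aldh4a1, with offset 1 or 64, median scaling, quantile normalization, no filter, a minimum mean of 100, eBayes without a trend, the mean of probe sets and shared probe sets left out. It was 0 with the replicate block, 3 at an adjusted p under 0.1 (Aldh1a7, Aldh1b1 and Aldh4a1), and 0 to 2 without 1 array. None was called lower in any of these. Over all probe sets 955 were called, against 584 with eBayes without a trend, 473 without a filter, 351 with the replicate block, 2032 at an adjusted p under 0.1 and 127 (without wild type 3) to 1006 (without knockout 1) without 1 array. After each group's mean was subtracted, same-numbered arrays of both groups correlated at 0.0866, -0.0562 and 0.0553, which gives little sign of pairing by number. By these deviations, 2 of the 3 wild type arrays (1 and 3) correlated best with the knockout of their own number and wild type 2 with knockout 3. Whether the livers are paired is not given by the labels. Knockout 4 has no partner in the block, which therefore drops it from the estimate, and fewer arrays are compared. Of 225 alternative values of the 15 probe sets, 200 kept sign and side of the threshold. The call was lost in 15: Aldh4a1 in 6 (the replicate block, and without knockout 2 or 4 or any wild type array) and the called probe set of Aldh8a1 in 9 (no trend, no filter, the replicate block at an adjusted p of 0.125, and without any array but knockout 3). A call was gained in 1, Aldh1a7 without knockout 3. The other 9 changed sign, all of Aldh2, whose bright probe set was at -0.0040 with quantile normalization, -0.0635 with the replicate block and -0.11 to 0.18 without 1 array. Another probe set of Aldh2 was at 0.0259 with the replicate block and -0.29 to 0.14 without 1 array.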
